A study of Arabidopsis thaliana with 4 samples.

Results

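The plastid genome of Arabidopsis thaliana carries the ndh genes, which encode subunits of the chloroplast NADH dehydrogenase-like complex, and 10 of them were followed here in whole seedlings with and without aluminium. They were taken by name, as plastid-encoded genes called ndh with a capital letter, from the probe sets that the array annotation pairs with exactly 1 gene: ndhA, ndhC, ndhD, ndhE, ndhF, ndhG, ndhH, ndhI, ndhJ and ndhK. They are 10 of 69 plastid genes and of 13513 plant probe sets paired with 1 gene, on an array with 22746 plant probe sets. The 11th gene of the set, ndhB, lies in 2 copies in the inverted repeat, and its probe set, paired with both, is described apart from the others.

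The seedlings had been raised on agar and were then submerged in a dilute, modified Murashige and Skoog solution with 1% sucrose. The aluminium group received aluminium at 50 µM for 16 h, and the control group a mock treatment over the same time. Each group has 2 Affymetrix ATH1 arrays, each with RNA from its own pool of 100 seedlings, and the labels call the pools biological replicates. The labels do not name the ecotype. With 2 arrays per group, the number of arrays limits the precision of every value below.

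The NADH dehydrogenase-like complex sits in the thylakoid membrane and passes electrons from reduced ferredoxin to plastoquinone. It takes part in cyclic electron flow around photosystem I and in chlororespiration, and it is related to complex I of the respiratory chain. Its plastid-encoded subunits form a membrane arm (NdhA to NdhG), which moves protons, and a stromal arm (NdhH to NdhK), which carries electrons through iron-sulfur clusters. The remaining subunits, and the proteins that edit and process the ndh transcripts, are encoded in the nucleus. Chloroplast transcripts mostly lack long poly(A) tails, while the labelling here started from poly dT primers. How far that shaped the readings of plastid genes was not tested.

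Aluminium arrays read lower than control arrays, on average, for all 10 ndh genes, as they did for 49.6% of all plant probe sets. The median difference was −1.44 on the log2 scale, against 0.0064 over all plant probe sets. The fitted differences ran from −2.31 for ndhH to −0.47 for ndhC. In 7 of the 10 genes both aluminium arrays lay below both controls, where 16.2% of all plant probe sets did so. A background level was set on each array at the 95th percentile of the 27 bacterial control probe sets, which was 422 to 586. In 1 of the 7 genes, ndhA, the readings on either side of the gap were both under that level. Leaving out such cases, 6 of 10 ndh genes and 8.23% of all plant probe sets were lower without overlap. No ndh gene passed limma with Benjamini-Hochberg adjustment over all plant probe sets, 0 of 10 (adjusted p from 0.966 to 0.982), and 0% of all probe sets passed. At an unadjusted p under 0.05 stood ndhH alone, 1 of 10, beside 2.41% of all probe sets lower with aluminium. Many ndh genes are transcribed together and share arrays, so the 10 are not independent observations.

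The 4 arrays themselves differed. The 18 hybridization control probe sets, for sequences added to every array, had geometric means of 131442 and 11226 on the aluminium arrays of replicate 1 and 2, and of 51057 and 6339 on the controls. That of 25S ribosomal RNA, a transcript that also lacks a poly(A) tail, read 3511 and 533 under aluminium against 1362 and 416. Markers of green tissue, measured for 4 of 6 listed nuclear genes (LHCB4.1, RCA, PRK and SBPASE), were all lower with aluminium, and their summed intensity was 6832 and 11353 against 31772 and 23017. Root markers, measured for 2 of 5 (PYK10 and EXPA7), summed to 573 and 1074 against 1429 and 995. No marker of either list was listed at 0, and RCA, PRK and SBPASE were above the background level on all 4 arrays, PYK10 and LHCB4.1 on 3 and EXPA7 on 0. The part of these differences in the ndh readings was not tested, and in whole seedlings fewer green cells and less RNA per cell cannot be told apart.

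**Figure D1:**
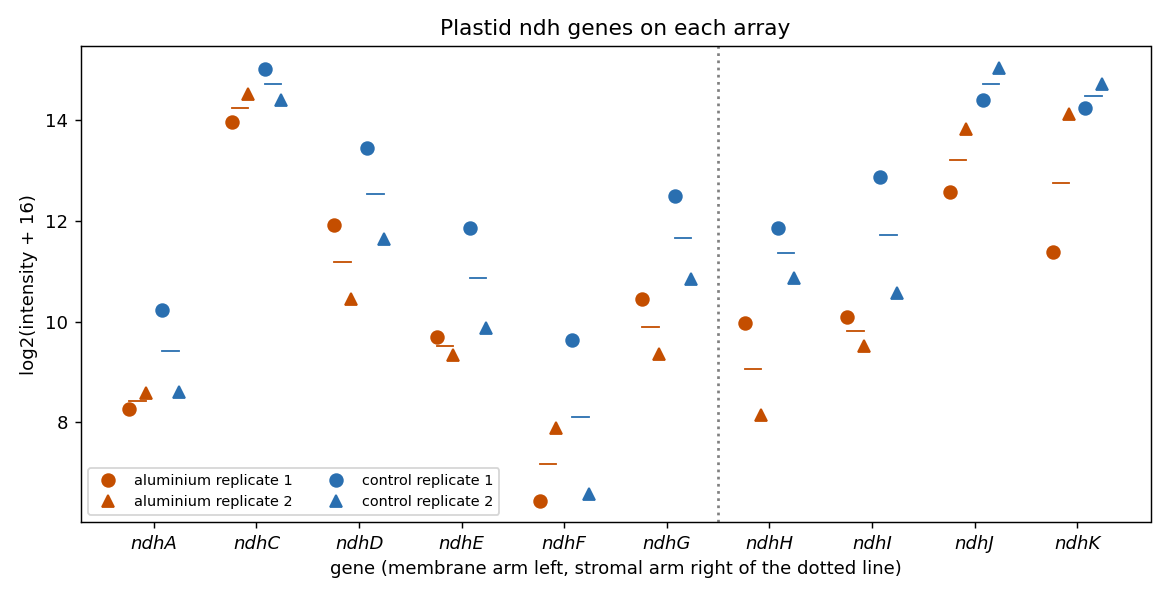
Log2(intensity + 16) of the 10 ndh genes on each array, with a point per array (orange, aluminium; blue, control; circles, replicate 1; triangles, replicate 2) and short lines at the group means. Control replicate 1 is the highest array in 8 genes and control replicate 2 in ndhJ and ndhK, and an aluminium array is the lowest in all 10.

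In the membrane arm, 6 genes were measured and all 6 had lower means with aluminium, with a median difference of −1.17. In ndhE and ndhG the groups did not overlap, and in ndhA they were apart only between dim readings. Of all plant probe sets, 16.2% were lower without overlap, or 8.23% leaving out gaps between dim readings. The ndhG gene encodes a small membrane subunit and read 1374 and 639.6 on the aluminium arrays of replicate 1 and 2, and 5758 and 1813 on the controls. Both aluminium arrays were below both controls, and control replicate 1 was far above the other 3. On the log2 scale the means were 9.90 ± 0.77 and 11.67 ± 1.17 (SD, n = 2 each), and the 95% interval of their difference, −1.77, reached from −3.93 to 0.39 (limma, adjusted p = 0.966).

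The ndhE gene, for another small membrane subunit related to Nad4L of mitochondria, read 810.1 and 632 under aluminium and 3702 and 920.3 in controls. The aluminium arrays were close to each other and below both controls, and control replicate 2 was nearer to them than to the other control. The difference was −1.35, with an interval from −3.53 to 0.83. The ndhA gene encodes the subunit at the foot of the stromal arm, where plastoquinone binds, and read 289.7 and 367.6 under aluminium against 1183 and 371.2. Its groups were apart by the narrow gap between 367.6 and 371.2, and control replicate 1 alone stood out. Both aluminium readings of ndhA and that of control replicate 2 lay under the background level, so the order of these 3 carries no weight and no fold is given. The fitted difference was −0.99 with an interval from −3.01 to 1.03.

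The other 3 membrane arm genes overlapped between groups. The ndhD gene, for a large proton-pumping subunit, read 3859.7 and 1382 under aluminium and 11111 and 3181 in controls. Within each replicate number the aluminium array was the lower one, but aluminium replicate 1 lay above control replicate 2. The difference of −1.36 had an interval from −3.69 to 0.97. The ndhC gene, for a small membrane subunit, read 16003 and 23568 under aluminium against 33374 and 21672. Aluminium replicate 2 stood above control replicate 2, and the difference of −0.47 had an interval from −2.20 to 1.26.

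The ndhF gene, for the other large proton-pumping subunit at the end of the arm, read 71.2 and 221 under aluminium against 783 and 79.1. Only control replicate 1 was above the background level, and the order of the 3 other readings carries no weight. The fitted difference was −0.94 with an interval from −3.87 to 1.99, and without control replicate 1 it was 0.59. The probe set of ndhB, the third large proton-pumping subunit, read 1296 and 2364 under aluminium and 5295 and 2766 in controls. Both aluminium arrays were below both controls, with a difference of −1.12 and an interval from −2.98 to 0.74 (limma, adjusted p = 0.966).

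In the stromal arm, all 4 genes had groups that did not overlap, beside 16.2% of all plant probe sets lower without overlap. The median difference was −1.82, and the arms were not tested against each other. The membrane arm holds ndhA and ndhF, each above the background level on 1 array only. The ndhH gene, whose product lies beside the plastoquinone pocket, read 984 and 266 under aluminium and 3725 and 1841 in controls. Both controls exceeded both aluminium arrays, and the reading of aluminium replicate 2 was under the background level. The fitted difference was −2.31, and with that reading taken at the background level it was −1.94, close to the −1.92 of ndhI. The means were 9.05 ± 1.29 and 11.36 ± 0.71 (SD, n = 2 each), and the interval of the difference, from −4.52 to −0.10, was the 1 interval among the 10 genes that left out 0. The gene did not pass limma over all probe sets (adjusted p = 0.966), and its adjusted p lay between 0.650 and 1.00 over the alternatives.

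The ndhI gene encodes a subunit with iron-sulfur clusters and read 1078 and 718 under aluminium against 7501 and 1506. The aluminium arrays were alike and the controls far apart, with a difference of −1.92 and an interval from −4.27 to 0.44. The ndhK gene, for the subunit that carries the last iron-sulfur cluster before plastoquinone, read 2649 and 17901 under aluminium and 19287.5 and 27039 in controls. There aluminium replicate 2 came close to the controls, and aluminium replicate 1 was far below the other 3 arrays. The difference was −1.73, with an interval from −4.31 to 0.86. The ndhJ gene, for a further stromal subunit, read 6116 and 14508 under aluminium against 21767 and 33815. Both aluminium arrays were below both controls, and the difference was −1.52 with an interval from −3.43 to 0.39.

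**Figure D2:**
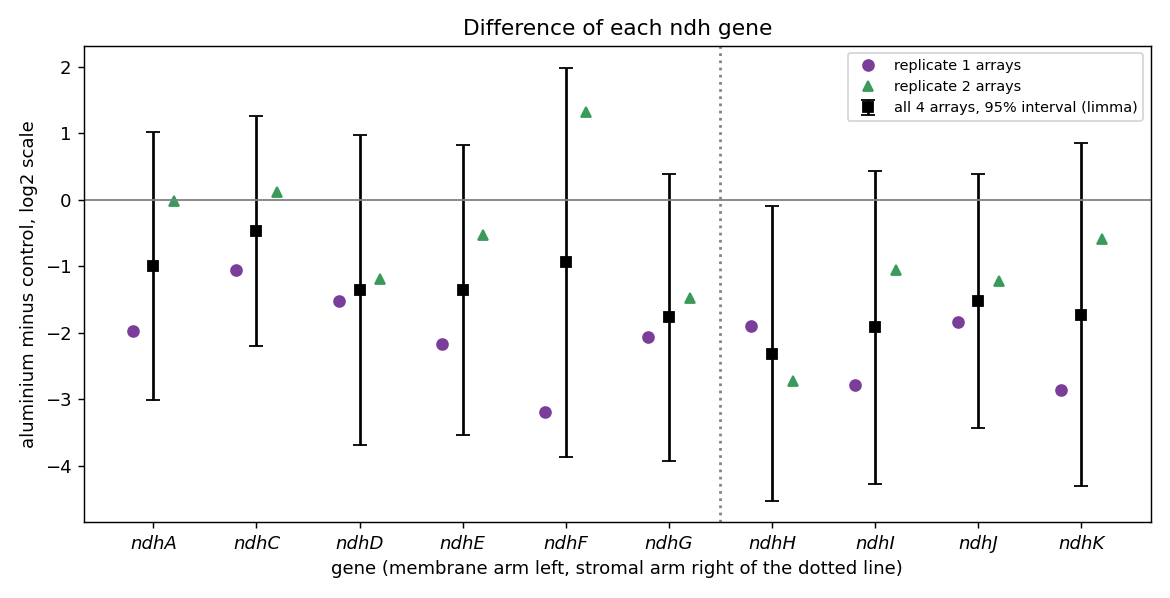
Aluminium minus control for each ndh gene on the log2 scale: squares, all 4 arrays with limma's 95% interval; circles, the replicate 1 arrays; triangles, the replicate 2 arrays. All squares are below 0, the interval of ndhH alone leaves out 0, and the triangles of ndhC and ndhF are above 0.

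The 2 replicate numbers gave differences of unlike size. Between the arrays of replicate 1, aluminium was lower for 10 of 10 genes, with a median of −2.01. Between the arrays of replicate 2 it was lower for 8 of 10, with a median of −0.82. The drop was larger in replicate 1 for 9 genes, while ndhH differed by −1.90 in replicate 1 and by −2.72 in replicate 2. In replicate 2, ndhF (1.32) and ndhC (0.12) were higher with aluminium, and ndhA differed by −0.013 between readings under the background level. Without control replicate 1 the median over the 10 genes was −0.61, and without control replicate 2 it was −2.30. Control replicate 1 was also the highest array for 54 of the 59 other plastid genes.

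Along the plastid genome, ndhC, ndhK and ndhJ adjoin each other, and ndhH, ndhA, ndhI, ndhG, ndhE and ndhD form a second stretch that holds psaC between ndhE and ndhD, by the gene order of assembly TAIR10.1. Both stretches are known as operons. In the first stretch the differences were −0.47 for ndhC, −1.73 for ndhK and −1.52 for ndhJ, with a median of −1.52. Control replicate 2 was the highest array for ndhJ and ndhK, and control replicate 1 for ndhC. In the second stretch, 5 ndh genes were lower in both replicate numbers, while the replicate 2 readings of ndhA were under the background level. The median over its 6 ndh genes was −1.56, with a range from −2.31 to −0.99. Control replicate 1 was the highest array for each of these 6.

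The gene inside that second stretch read otherwise. The psaC gene encodes the iron-sulfur subunit of photosystem I and read 1997 and 433 under aluminium against 1923 and 356. The replicate 1 arrays were high and the replicate 2 arrays low, under the background level, in both treatments. The difference was 0.16 with an interval from −2.67 to 2.99. That interval includes the differences of 6 of 6 ndh genes around it, and the difference between psaC and them was not tested. Of the genes that border the stretches, ccsA, beside ndhD and needed to attach haem to c-type cytochromes, differed by −1.84. The ribosomal protein gene rps15, beside ndhH, differed by −1.50, and its aluminium readings of 1549 and 1510 were below its controls at 5555 and 3416. The rps4 gene, the next measured gene after ndhJ, differed by −2.72, and atpE, next to ndhC, by −0.61. Beside ndhF, rpl32 differed by −0.23, with 14543 and 25923 under aluminium against 22389 and 23199.8 in controls.

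**Figure D3:**
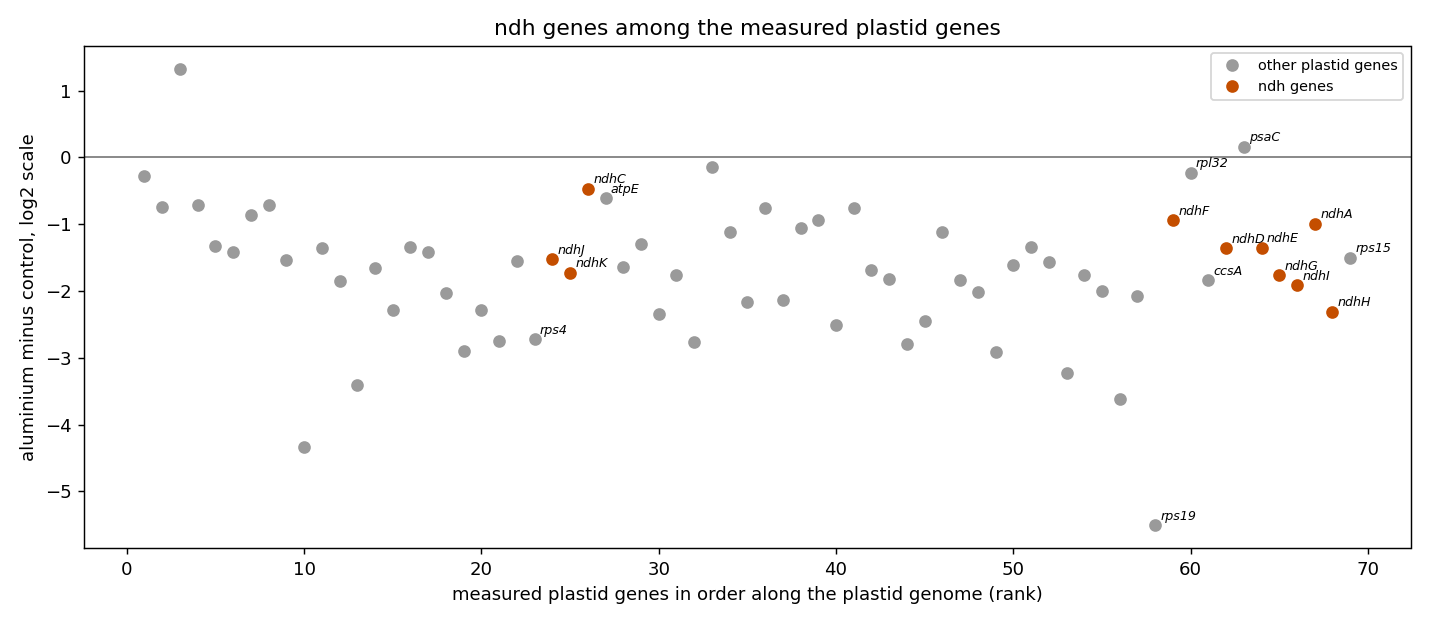
Aluminium minus control on the log2 scale for the 69 measured plastid genes, placed by rank along the plastid genome (orange, ndh genes; grey, others). The ndh genes lie between −2.31 and −0.47, within the range of the other plastid genes from −5.51 to 1.33. The psaC gene, under the background level on both replicate 2 arrays, stands at 0.16 among the ndh genes on the right.

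The other plastid genes were lower with aluminium as well. Of 59, 57 had lower means, and in 42 the groups did not overlap, beside 16.2% of all plant probe sets lower without overlap. The 42 include separations between readings under the background level, such as that of rpl16. The median difference over the 59 was −1.65. In 36 of the 59 the difference was below the ndh median. The ATP synthase genes, with 6 of 6 lower and 3 without overlap, had a median of −1.14. The 4 genes of the plastid-encoded RNA polymerase were all lower without overlap, with a median of −1.70. The medians of the photosystem II genes (−1.41) and of the cytochrome b6f genes (−1.48) lay on either side of that of the ndh genes. None of these classes held a gene past limma, and no test was made between classes.

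Mitochondria encode related subunits of respiratory complex I in their nad genes. Of 8 nad genes with a probe set, 5 were lower and 3 higher with aluminium, with a median of −0.21. Only nad5, 1 of 8, had groups that did not overlap, beside 16.2% of all plant probe sets lower without overlap. For 7 ndh genes the mitochondrial relative was measured, and in 5 of these pairs the ndh gene had the more negative difference. They were ndhA and nad1 (−0.99 and 0.76), ndhE and nad4L (−1.35 and 0.13), ndhG and nad6 (−1.77 and −0.11), ndhH and nad7 (−2.31 and −0.31) and ndhJ and nad9 (−1.52 and 0.43). All 4 readings of nad4L were below background, and without that pair the count was 4 of 6. That count keeps the pairs of ndhA and ndhF, each above the background level on 1 array only. The order was turned for ndhD and nad4 (−1.36 and −1.71) and for ndhF and nad5 (−0.94 and −2.15). For nad4 the low reading was 288 on aluminium replicate 2, beside 2641 on aluminium replicate 1, and for nad5 it was 52.8 on aluminium replicate 1, beside 569.6 on aluminium replicate 2. Of the 7 probe sets of nad1 and the 2 of nad5, the brightest of each gene was taken. The pairs were not tested.

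**Figure D4:**
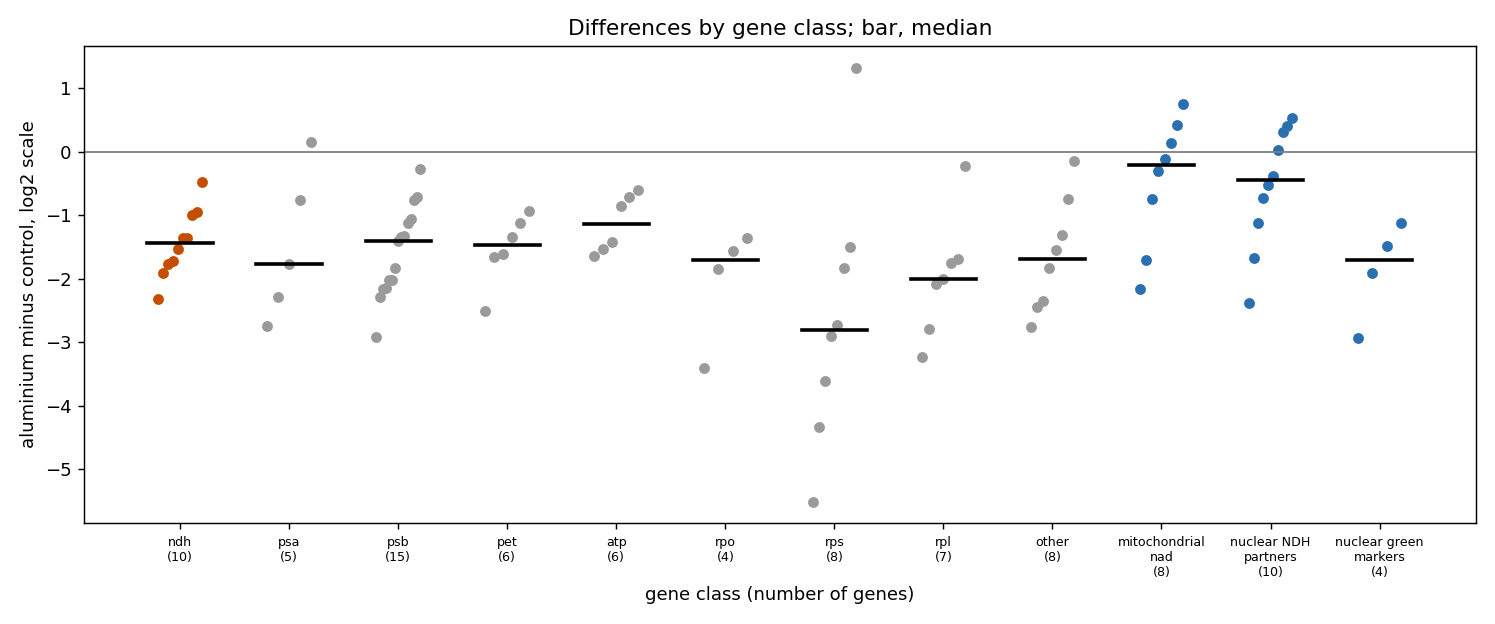
Aluminium minus control on the log2 scale for each gene, by class, with a bar at the class median and the number of genes in brackets (orange, ndh; grey, other plastid classes; blue, mitochondrial and nuclear genes). The medians of the plastid classes lie between −2.81 and −1.14, and that of the nuclear green markers at −1.70. That of the nad genes lies at −0.21 and that of the nuclear partners at −0.45.

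Nuclear genes that build or serve the complex were measured for 10 of 43 listed, and the others were not analysed here. Of these 10, 6 were lower and 4 higher with aluminium. The groups did not overlap in 3 lower and 1 higher, beside 16.2% and 16.5% of all plant probe sets. Of the 3, NdhS and CRR22 had readings on either side of the gap that were both under the background level. Leaving out such cases, NdhL remained, beside 8.23% of all plant probe sets lower without overlap. The median difference over the 10 partners was −0.45, and it was 0.18 without control replicate 1. Of the 10, 0 passed limma, beside 0% of all plant probe sets. CRR22 alone, 1 of 10, had an unadjusted p under 0.05, beside 2.41% of all plant probe sets lower with aluminium.

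Of 20 listed nuclear subunit genes, 4 were measured, among them AT2G04039, which the reference tables do not name as a subunit. NdhS, for the subunit that docks ferredoxin, read 181 and 84.2 under aluminium against 346 and 537. Both aluminium arrays were below both controls, although only control replicate 2 was above the background level, and the difference was −1.67 with an interval from −3.49 to 0.15. NdhL, which anchors the stromal arm to the membrane, read 467 and 919.5 under aluminium against 1028 and 1159. Its groups did not overlap either, with a difference of −0.72 and an interval from −2.49 to 1.05. NdhN, a stromal arm subunit, read 946 and 1201 under aluminium and 517 and 1039 in controls. Its groups overlapped, and its difference of 0.53 had an interval from −1.26 to 2.32. AT2G04039 had overlapping groups and differed by −0.38.

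Editing of ndh transcripts, which changes C to U in plastid RNA, needs nuclear pentatricopeptide repeat proteins, and 5 of the 13 listed RNA and assembly factors were measured. CRR22, which edits ndhB and ndhD transcripts, read 137 and 39.9 under aluminium against 548 and 398. Its groups did not overlap, but only control replicate 1 was above the background level, and the difference was −2.39 with an interval from −4.35 to −0.43 (limma, adjusted p = 0.966). The other editing factors had overlapping groups. OTP85 and CRR21, which act on ndhD, differed by −1.13 and 0.41, CRR28, on ndhB and ndhD, by −0.52, and OTP84, on ndhB and ndhF, by 0.02. CRR21 was under the background level on all 4 arrays. In the other route of cyclic electron flow, 1 of 4 listed genes was measured. PGRL1B, partner of PGR5 in that route, read 1480.4 and 1841 under aluminium against 1366 and 1287. Its aluminium arrays were both above the controls, by 0.31 on the log2 scale, with an interval from −1.33 to 1.95. Of the 6 listed sigma factors, which guide the plastid RNA polymerase to promoters, 0 were measured among the probe sets paired with 1 named gene.

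The typical ndh pattern over the 4 arrays, the median of the gene profiles each centred on its own mean, was −0.59 on both aluminium arrays, 1.62 on control replicate 1 and −0.14 on control replicate 2. Among the ndh genes, ndhE was nearest to it, with a Euclidean distance of 0.33, and ndhK farthest, with 2.55. Of 13503 other probe sets paired with 1 gene, the 5 nearest over the 4 arrays were those of AT3G62080 (0.17), AT5G45790 (0.18), AT3G42710 (0.18), AT2G46050 (0.23) and AT4G16447 (0.23). All 5 were dim, with both aluminium readings under the background level. The nearest plastid genes were atpA (0.24), psbI (0.30) and psbB (0.39), and 6 of the 59 other plastid genes were among the 100 nearest. These distances rest on 4 arrays and describe the pattern only.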

How the data were processed

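The deposited table gives a linear intensity for each probe set on each array. Per the submitters' processing notes, GCOS and RMA were used, with roles not given in the sources used here. With 2% of the probe sets trimmed at each end, the mean was 500.0 on every array, so the authors' intensity values are globally scaled. Genes were named through the array's annotation table and assembly TAIR10.1, which served only for names and gene order. The 64 control probe sets were left out of the test. All 22746 others were analysed as log2(intensity + 16), which understates fold changes of dim probe sets, with limma 3.58.1 in R 4.3.3 as a linear model of group and two-sided moderated tests. Benjamini-Hochberg adjustment ran over all of them, at a threshold of 0.05. Plots used matplotlib 3.10.9. The steps were tested on simulated data.

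The members, the lists of nuclear partners and markers and the naming rule were chosen with earlier results of these data known. All measured members and partners are named, with the 5 nearest genes by profile. Where a gene had several probe sets, the brightest by mean was taken. Lists are described by counts and medians, without a test. Alternatives were scaling, filters on dim probe sets, pseudocounts, the spread model, the replicate number as a block and leaving out each array. The replicate numbers taken alone, the ndhB probe set, the count without separations under background and the mitochondrial pairs were chosen after seeing the data.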

Additional observations from a re-analysis of the deposited data

How the results depend on the processing

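Filters on dim probe sets, the spread model and the replicate block cannot change the difference of a gene, only its p-value. Under 13 other settings, these included, the 10 genes gave 129 values, of which 127 kept their direction. None passed limma under any of them (adjusted p from 0.403 to 1.00). The exceptions were ndhC after quantile normalization (0.11) and ndhF without control replicate 1, where leaving out single arrays gave −2.48 to 0.59. In the arrays of replicate 2 alone, ndhC (0.12) and ndhF (1.32) also changed sign. The ndh median ranged from −2.30 to −0.61 with 1 array left out, and the count lower without overlap from 7 to 10, beside 30.9% to 35.0% of all plant probe sets, since fewer arrays can overlap. Quantile normalization gave a median of −1.20, and adding ndhB gave −1.36. With ndhB and all 4 arrays, 8 of 11 genes, ndhA among them, were lower without overlap, beside 16.2% of all plant probe sets. For the 10 nuclear partners, the median was −1.0002 to 0.18 and the number lower 4 to 7 with 1 array left out. Without the dimmest 50% of probe sets, 4 partners remained, with 2 lower and a median of −0.034. The partners left out were CRR22 (−2.39), NdhS (−1.67), OTP85 (−1.13), CRR28 (−0.52), OTP84 (0.02) and CRR21 (0.41). That filter also left out ndhF.

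With the replicate number as a block, the differences cannot change in this balanced design, so the median was again −1.44. In that fit 0 genes passed limma (adjusted p from 0.899 to 0.974). The deviations of same-numbered arrays from their group means had an r of 0.087 across probe sets, which are not independent. The hybridization controls and 25S ribosomal RNA, however, read higher on both replicate 1 arrays than on either replicate 2 array. With 2 arrays per group and labels that do not say what a number shares, the numbers were not taken as pairs.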
